A study of Mus musculus with 2 samples.

Results

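The collagen genes were described here as a family, by the class of fibre or network that each chain builds. Every gene was taken whose symbol in the authors' deposited table of distal against proximal regions is Col, a type number, the letter a and a chain number. This gave 41 collagen genes of 13916 protein-coding genes. They fall into 11 fibrillar genes, 8 basement membrane genes, 4 beaded filament genes, 9 fibril-associated genes and 9 of other kinds. The rule uses names and no measured value, though the family was proposed with results of these data known. The GENCODE M21 annotation of the mouse holds 44 genes of this name pattern, and Col28a1, Col6a5 and Col6a6 were not analysed here.

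Both groups came from limb-mesenchymal organoids, which are aggregates of mouse embryonic limb mesenchymal cells of the Slc:ICR strain. All organoids had been kept for 48 h in medium with Fgf8b and Wnt3a and were frozen on day 2, so the 2 sides share the culture and both growth factors and differ in position. Photo-isolation chemistry (PIC) reads RNA from chosen areas of a section: RNA is reverse transcribed in place from caged primers, and light of 365 nm frees the cDNA where it falls. Per the labels, 5 distal regions went into 1 library and 5 proximal regions into another, from 5 organoids of 4 surrogate cultures, and all carry the batch name PIC26. Side and library therefore cannot be told apart, and the p-values below measure only the spread between regions that share a library and may share an organoid.

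Collagens are the main structural proteins of the extracellular matrix, made of 3 chains wound into a triple helix. Fibrillar collagens form the cables that bear tension in skin, tendon, bone and cartilage, whereas type IV forms the sheet-like network of basement membranes and type VI forms beaded microfibrils around cells. Fibril-associated collagens sit on the surface of the cables. In the limb, loose mesenchyme and the perichondrium make types I, III, V and VI, and condensing cartilage switches to types II, IX and XI.

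The depth limits what can be seen. The 10 size factors read from the lowest values of the table ran from 0.329 to 0.832 in distal regions and from 1.5 to 2.42 in proximal regions, so distal regions held 23.3% of the summed depth. This is about 46991 to 118978 counts of listed genes per distal region and 214774 to 345649 per proximal region. A total of 3 counts over the 5 regions of a side, taken here as the floor, corresponds to a normalized count of 1.02 in distal and 0.311 in proximal. Of the 41 collagen genes, 18 had a mean of at least 10 normalized counts, 13 a mean under 1, and 9 stood at or under the floor on both sides. Counts of single regions could be recovered for 25 members with a mean up to 14, and the others are given by the fitted level of each side. Counts are not scaled by transcript length, so levels are compared between sides and not between genes.

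In the authors' deposited table, 7 of the 41 collagen genes (17.1%) were higher in the proximal regions at an adjusted p under 0.05, and 0 were higher in distal. These were Col1a1, Col1a2, Col3a1, Col5a1, Col6a1, Col6a3 and Col8a2. Over all genes, 0.582% were called higher in proximal and 0.395% higher in distal at the same limit. Collagens made up 8.64% of all calls higher in proximal. Of the 18 collagen genes whose mean reached 10, 6 were called higher in proximal, against 1.68% of all such genes, and 0 higher in distal, against 1.36%. Col6a2 and Col6a3 reached that mean through their proximal level, so these counts are a description. At an unadjusted p under 0.05, 10 collagen genes were higher in proximal, where the share over all genes was 3.51%, and 2 were higher in distal, where it was 2.56%. In bulk regions such as these, fewer cells of a type and less RNA per cell cannot be told apart. Muscle markers also differed, at a summed 14.2 normalized counts in distal and 128 in proximal, and their part in the collagen counts was not tested.

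By class, 4 of 11 fibrillar genes, 2 of 4 beaded filament genes and 1 of the remaining 9 genes were called higher in proximal, and 0 of the basement membrane and fibril-associated genes were called. Summed over all 41 genes, the fitted level was 1370 normalized counts per region in distal and 1880 in proximal, which is 0.96% and 1.32% of the summed level of all listed genes. The ratio of proximal to distal was 1.54 for fibrillar genes, 3.27 for beaded filament genes, 1.16 for basement membrane genes, 0.988 for fibril-associated genes and 1.31 for the remaining 9. Without Col1a1, Col1a2 and Col3a1 the ratio over the other 38 genes was 1.1, so these 3 genes hold most of the summed difference. The median log2 change of distal over proximal was -0.28 over the 41 collagen genes and 0.07 over all genes. By class the median was -0.52 for fibrillar, -1.16 for beaded filament, -0.18 for basement membrane and -0.07 for fibril-associated genes, and -0.14 for the rest. Several of these medians rest on genes near the floor. Over members with a mean of at least 1, the median was -0.52 for all collagen genes, -0.5 for basement membrane genes and -0.37 for the rest, and with floor genes at their bound or left out it was -0.49, -0.47 and -0.6.

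**Figure D1:**
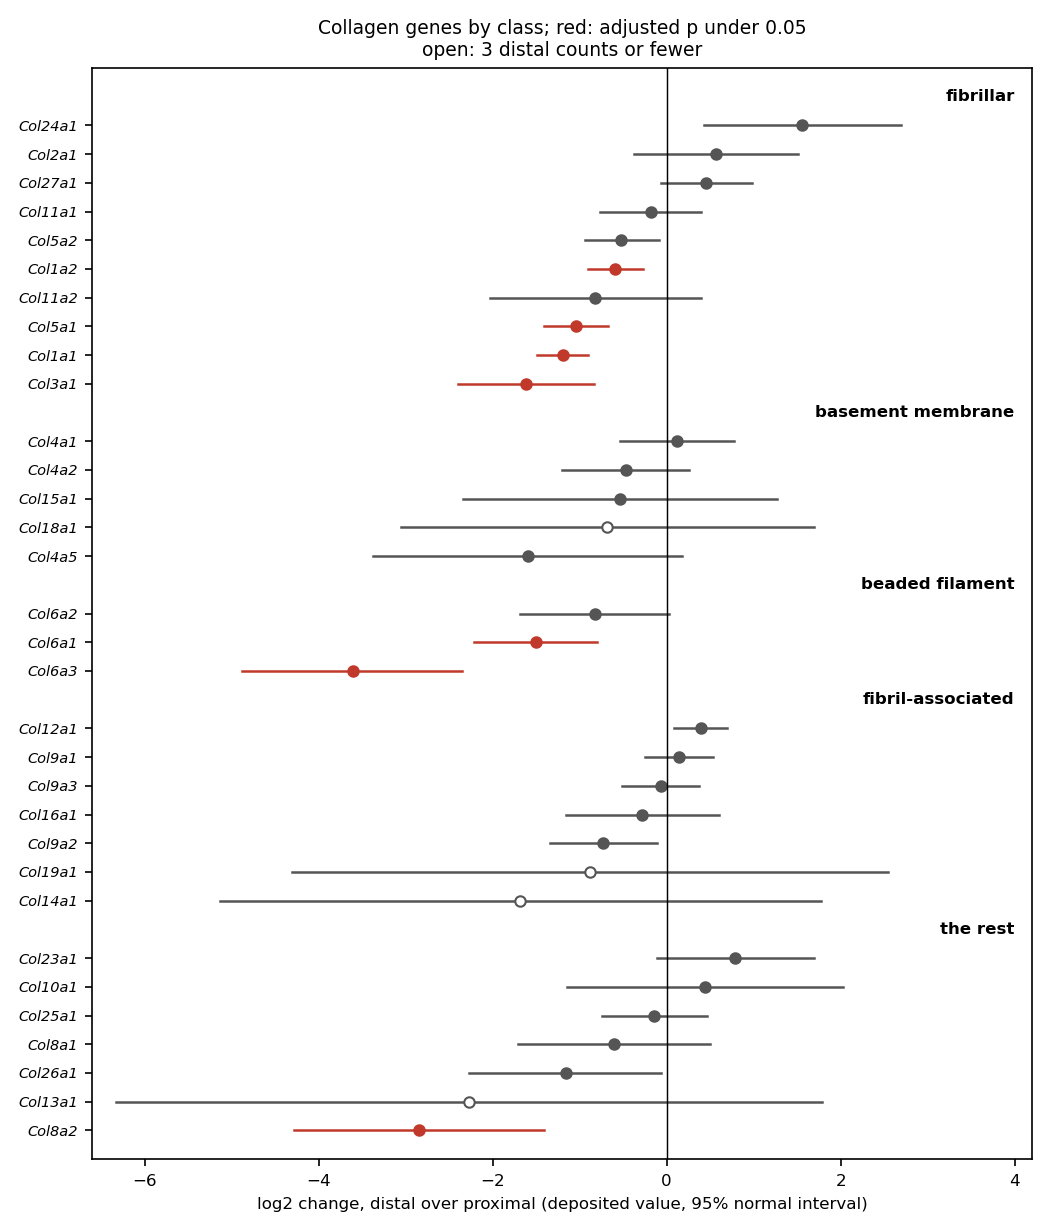
Deposited log2 change of distal over proximal (x axis, 95% normal interval from the deposited standard error) for the 32 collagen genes above 3 counts on at least 1 side, grouped by class. Red marks the 7 genes with an adjusted p under 0.05, all to the left of 0, and open circles mark 4 genes with 3 distal counts or fewer.

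The promoters of called genes are shown because these genes were called in the same direction. RefSeq (GRCm38.p6) promoters were matched for 32 of the 41 members, with 35 start sites, and for 6 of the 7 called genes. The 150 bases before the start were searched on both strands for a CCAAT box spelled CCAAT, for a TATA box spelled TATAAA and for a GC box spelled GGGCGG, and no match in the printed windows overlaps another. The 3 printed windows are those of called genes with no annotated exon in them, and capitals mark a motif. They are chr1:45311388-45311537 on the plus strand for Col3a1, chr2:27886275-27886424 on the plus strand for Col5a1 and chr1:90843972-90844121 on the minus strand for Col6a3.
Col3a1: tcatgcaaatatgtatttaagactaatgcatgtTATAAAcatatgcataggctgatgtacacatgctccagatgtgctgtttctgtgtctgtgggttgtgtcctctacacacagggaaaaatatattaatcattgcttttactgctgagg
Col5a1: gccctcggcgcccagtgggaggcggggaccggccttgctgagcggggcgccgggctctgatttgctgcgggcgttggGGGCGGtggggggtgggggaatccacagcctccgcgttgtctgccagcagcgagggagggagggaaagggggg
Col6a3: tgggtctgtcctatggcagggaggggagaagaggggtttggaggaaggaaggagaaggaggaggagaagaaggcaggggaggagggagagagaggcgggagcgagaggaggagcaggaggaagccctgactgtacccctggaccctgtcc

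The 3 windows have little in common in their letters. Col3a1 is 37.3% G or C and holds TATAAA 117 bases before the start. Col5a1 is 74.7% G or C with GGGCGG at 73 bases, and Col6a3 is 62.7% G or C and holds none of the 3 motifs. The median over all promoters was 54% G or C. GGGCGG occurred in 17 of the 35 collagen promoters (48.6%) and in 28.6% of all 32851 promoters. CCAAT occurred in 8 (22.9%, against 24.5% of all), and TATAAA in 4 (11.4%, against 7.57%). A match describes the letters only.

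Type I collagen, the chief fibre of skin, tendon and bone, was higher in proximal for both of its chains. Col1a1 (chr11:94936224-94953042, plus strand, GRCm38) had a fitted level of 162 normalized counts in distal and 370 in proximal, from about 474 and 3570 counts. Its log2 change (distal over proximal, with its standard error, SE) was -1.19 (SE 0.15, adjusted p = 4.54e-12) in the authors' deposited table, which is 2.29-fold higher in proximal with a 95% interval of 1.86 to 2.81. By p-value it ranked 7 of all 13916 genes. Col1a2 (chr6:4504814-4541544, plus strand), the partner chain, stood at 192 in distal and 289 in proximal. For Col1a2 the authors' deposited table gives a log2 change of -0.59 (SE 0.16, adjusted p = 0.0301), or 1.5-fold higher in proximal (95% interval 1.21 to 1.86). The change of Col1a1 exceeded that of Col1a2 by 0.61 on the log2 scale, but the 95% intervals met and the difference between the chains was not tested.

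Type III collagen, which accompanies type I in soft connective tissue, showed the largest fold among the fibrillar genes called. Col3a1 (chr1:45311538-45349706, plus strand) stood at 50.7 normalized counts in distal and 156 in proximal, from about 148 and 1500 counts. In the authors' deposited table its log2 change was -1.62 (SE 0.40, adjusted p = 0.0082). This is 3.07-fold higher in proximal, with an interval of 1.79 to 5.28 that is wider than that of Col1a1. Col5a2 lies 24.6 kb from Col3a1, and its values follow.

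Type V collagen takes part in starting type I fibrils and sets their width. Col5a1 (chr2:27886425-28039514, plus strand) stood at 60.1 normalized counts in distal and 124 in proximal. Its log2 change in the authors' deposited table was -1.04 (SE 0.19, adjusted p = 1.23e-05), or 2.06-fold higher in proximal (95% interval 1.6 to 2.66). Col5a2 (chr1:45374321-45503282, minus strand) stood at 63.5 in distal and 90.9 in proximal. It did not pass the adjusted test, with a log2 change of -0.52 (SE 0.22, adjusted p = 0.543) in the authors' deposited table (unadjusted p = 0.0171). Col5a3 had 0 counts in distal and 2 in proximal. Annotated exons of 2 transcripts on the opposite strand overlap those of Col5a1, and the sources used here do not give the strand used in counting.

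The cartilage fibril collagens passed the test in neither direction. Col2a1 (chr15:97975602-98004695, minus strand), the main cartilage fibre, stood at 176 normalized counts in distal and 119 in proximal. Its log2 change was 0.57 (SE 0.48) in the authors' deposited table (adjusted p = 0.991), an interval that runs from 0.771-fold to 2.85-fold of distal over proximal. Col11a1 (chr3:114030540-114220718, plus strand), which joins type II in thin fibrils, stood at 52.0 in distal and 59.0 in proximal. Its log2 change was -0.18 (SE 0.29) in the authors' deposited table. Col11a2 had recovered counts of 3, 3, 1, 2 and 0 in the distal regions and 12, 14, 12, 9 and 5 in the proximal ones, with a log2 change of -0.82 (SE 0.62) in the authors' deposited table. Regions are listed here and below from the deepest to the shallowest of a side. Divided by the size factors, the Col11a2 levels were 3.61, 4.30, 1.79, 3.92 and 0 in distal and 4.96, 6.33, 6.13, 5.74 and 3.33 in proximal, so the sides overlapped.

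Over the 6 cartilage collagens Col2a1, Col9a1, Col9a2, Col9a3, Col11a1 and Col11a2, the median log2 change was -0.13 and 0 passed the adjusted test. Their summed level was 582 normalized counts in distal and 548 in proximal. The transcription factor Sox9, which drives type II collagen in chondrogenic cells, was higher in distal, at 842 against 522 normalized counts. For Sox9 the log2 change was 0.69 (SE 0.13, adjusted p = 4.7e-05) in the authors' deposited table. Sox9 was the 1 of 8 cartilage markers in the table that passed, and 6 of the 8 had negative log2 changes, with a median of -0.18. Over the 4 with a mean of at least 10 the median was 0.03, with 2 positive and 2 negative. Besides Sox9 these were Sox5 at 0.12, Sox6 at -0.13 and Matn4 at -0.05. Cnmd and Chad were at the floor in distal. Acan and Hapln1 had lower means, of 4.43 and 3.12. Acan, the main cartilage proteoglycan, had -1.57 (SE 0.74, unadjusted p = 0.0345, adjusted p = 0.79) and Hapln1, its link protein, -1.18 (SE 0.91, adjusted p = 0.991) in the authors' deposited table.

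Types XXIV and XXVII are fibrillar collagens of developing bone and cartilage, and both had positive log2 changes that did not pass the adjusted test. Col27a1 (chr4:63214004-63334991, plus strand) stood at 37.0 normalized counts in distal and 27 in proximal, with a log2 change of 0.45 (SE 0.27) in the authors' deposited table. Col24a1 (chr3:145292472-145552011, plus strand) had counts of 9, 3, 5, 1 and 11 in distal and 6, 5, 7, 6 and 10 in proximal. The authors' deposited table lists its log2 change as 1.56 (SE 0.58, unadjusted p = 0.00669, adjusted p = 0.317). Its normalized levels were 10.8, 4.30, 8.95, 1.96 and 33.5 in distal and 2.48, 2.26, 3.58, 3.83 and 6.66 in proximal. The shallowest distal region held 11 of the 29 distal counts, and the sides overlapped.

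**Figure D2:**
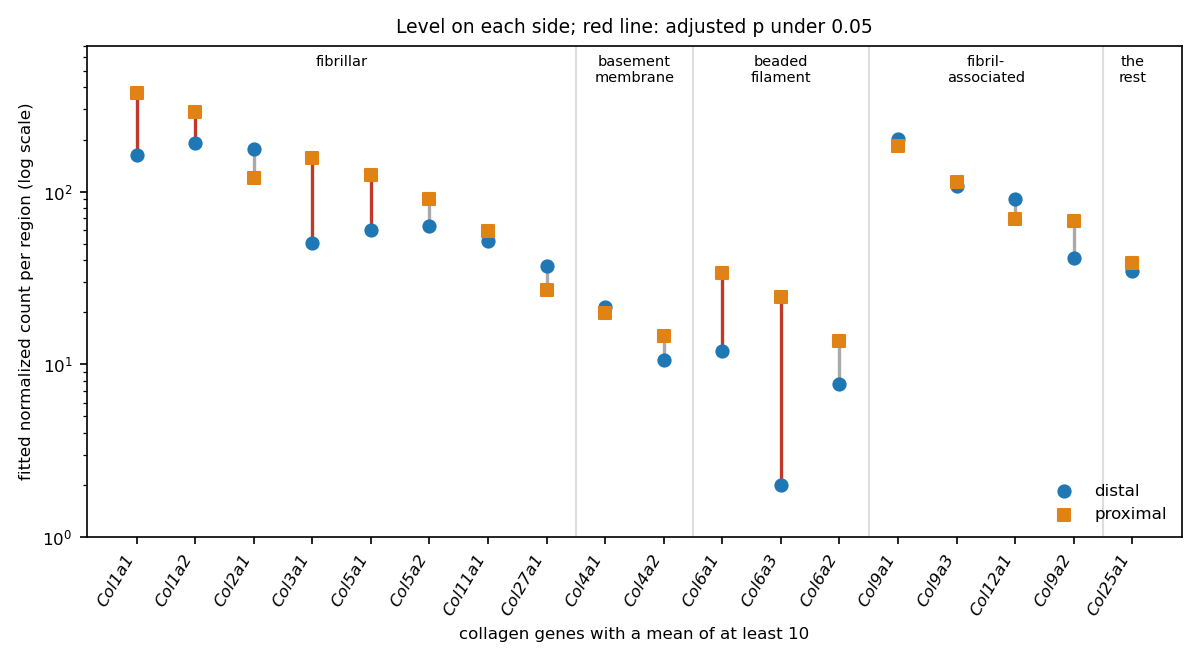
Fitted normalized count per region on each side (log axis) for the 18 collagen genes with a mean of at least 10, with classes separated by vertical lines. Circles are distal and squares proximal; red lines join the 6 genes with an adjusted p under 0.05, and Col6a3 shows the widest gap, from 2.00 to 24.4.

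Type VI collagen had the lowest median log2 change of the 5 classes. It is built from 3 different chains that assemble into tetramers and then into beaded filaments close to the cell surface. All 3 classic chains had negative log2 changes, and Col6a1 and Col6a3 passed the test. Col6a3 (chr1:90765923-90843971, minus strand) had recovered counts of 5, 0, 0, 0 and 1 in the distal regions and 81, 52, 41, 37 and 32 in the proximal ones. Divided by the size factors, these are 6.01, 0, 0, 0 and 3.04 in distal (mean 1.81 ± 2.69, SD, n = 5 regions) and 33.5, 23.5, 21, 23.6 and 21.3 in proximal (mean 24.6 ± 5.14, SD, n = 5 regions). Every proximal region was above every distal region, and 3 distal regions had no count.

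The deposited change of Col6a3 was among the steepest of the whole comparison. In the authors' deposited table it was -3.61 on the log2 scale (SE 0.64, adjusted p = 8.46e-06). This is 12.2-fold higher in proximal, with a 95% interval of 5.09 to 29.3. The gene ranked 15 from the lowest log2 change of all genes, and 3 among the 3757 genes whose mean reached 10. Col6a3 reached that mean through its proximal level (24.4, against 2.0 in distal), so the rank of 3 is a description.

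Col6a1 (chr10:76708792-76726168, minus strand) stood at 12 normalized counts in distal and 33.9 in proximal, from about 35 and 327 counts. Its log2 change of -1.5 (SE 0.36, adjusted p = 0.00499 in the authors' deposited table) is 2.84-fold higher in proximal, with an interval of 1.74 to 4.62. Col6a2 (chr10:76595762-76623630, minus strand) lies 85.2 kb away on the same strand. It had counts of 4, 6, 4, 6 and 2 in distal and 20, 29, 24, 36 and 17 in proximal. Its normalized levels were 4.81, 8.59, 7.16, 11.8 and 6.09 in distal (mean 7.68 ± 2.67, SD, n = 5 regions) and 8.27, 13.1, 12.3, 23.0 and 11.3 in proximal (mean 13.6 ± 5.56, SD, n = 5 regions). The sides overlapped. Col6a2 did not pass, with a log2 change of -0.82 (SE 0.44, adjusted p = 0.991) in the authors' deposited table (unadjusted p = 0.0596).

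The log2 change of Col6a3 lay below that of Col6a1 by 2.11 and below that of Col6a2 by 2.79, and its 95% interval met neither of theirs. The differences between chains were not tested. Col6a4, a chain of a separate kind, had 1 count in distal and 1 in proximal.

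**Figure D3:**
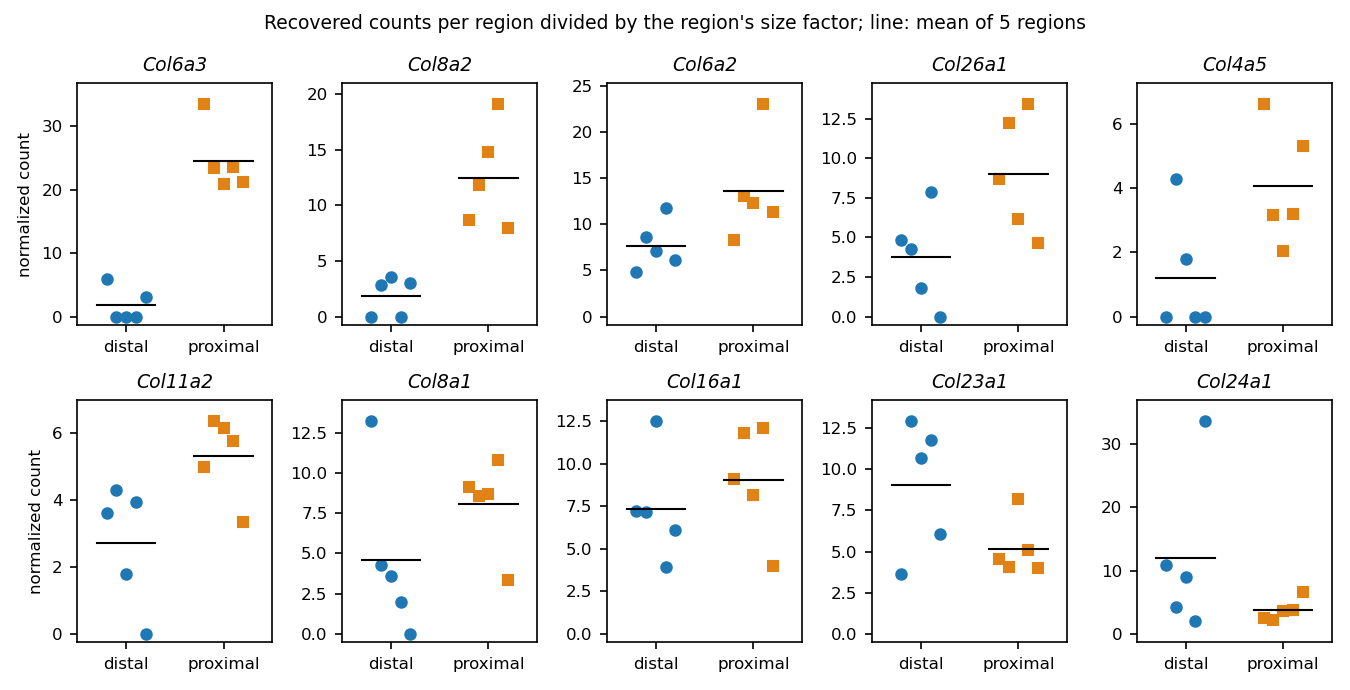
Normalized count in each of the 5 distal (circles) and 5 proximal (squares) regions for 10 collagen genes whose region counts could be recovered; horizontal lines are means, points run from the deepest to the shallowest region, and each panel has its own y axis from 0. Among these 10 genes, the sides of Col6a3 and Col8a2 do not overlap. Both were called from these same regions, other called genes lack region counts, and no share over all genes is given. In Col24a1, 1 distal region stands at 33.5.

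Fibril-associated collagens had nearly equal sums on both sides, at 450 normalized counts in distal and 444 in proximal, and 0 of 9 passed the adjusted test. Type IX decorates cartilage fibrils as a molecule of 3 different chains. Col9a1 (chr1:24177610-24252684, plus strand) stood at 202 in distal and 184 in proximal, with a log2 change of 0.14 (SE 0.20) in the authors' deposited table. Col9a3 (chr2:180597790-180622189, plus strand) stood at 108 in distal and 113 in proximal, with a log2 change of -0.07 (SE 0.22) in the authors' deposited table. The 95% interval ran from -0.25 to 0.53 for Col9a1 and from -0.51 to 0.37 for Col9a3, and both contain 0.

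For Col9a2, the remaining type IX chain, the value was negative but did not pass. Col9a2 (chr4:121039385-121055322, plus strand) stood at 41.0 normalized counts in distal and 67.9 in proximal. In the authors' deposited table it had a log2 change of -0.73 (SE 0.31, unadjusted p = 0.0204, adjusted p = 0.595). Its change was 0.87 below that of Col9a1 and 0.65 below that of Col9a3, with intervals that met. The exons of Col9a3 overlap those of Tcfl5 on the opposite strand, which is also in the table.

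Col12a1 (chr9:79598991-79718831, minus strand), a bridging collagen of dense connective tissue and joints, had a positive log2 change that did not pass the adjusted test. It stood at 90.4 normalized counts in distal and 69.0 in proximal, 1.31-fold of distal over proximal (95% interval 1.06 to 1.63). The authors' deposited table gives a log2 change of 0.39 (SE 0.16, unadjusted p = 0.0136, adjusted p = 0.487). Col16a1 had counts of 6, 5, 7, 2 and 2 in distal and 22, 26, 16, 19 and 6 in proximal, and a log2 change of -0.28 (SE 0.45) in the authors' deposited table. Its sides overlapped.

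The other fibril-associated genes had 11 counts or fewer on each side. Col14a1 had 0 counts in distal and 11 in proximal, or 1.11-fold lower in distal with distal held at 3 counts. Its log2 change was -1.68 (SE 1.76, adjusted p = 0.991) in the authors' deposited table, with an interval that contains 0. Col19a1 had 0 and 6 counts, Col20a1 0 and 2, and Col22a1 0 and 1, and no fold can be given for them at this depth.

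Of the 8 basement membrane collagens, 0 passed the test, and 4 had a mean under 1. Col4a1 (chr8:11198423-11312826, minus strand), which with Col4a2 builds the ubiquitous type IV network, stood at 21.6 normalized counts in distal and 19.9 in proximal. Its log2 change was 0.12 (SE 0.33) in the authors' deposited table. Col4a2 (chr8:11312805-11449287, plus strand) stood at 10.6 in distal and 14.6 in proximal, with a log2 change of -0.47 (SE 0.37) in the authors' deposited table. The genes lie head to head and share 22 bases at their starts.

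Col4a5, a chain of specialised basement membranes on the X chromosome, had counts of 0, 3, 1, 0 and 0 in distal and 16, 7, 4, 5 and 8 in proximal. Its levels were 0, 4.30, 1.79, 0 and 0 in distal and 6.62, 3.17, 2.04, 3.19 and 5.33 in proximal. The sides overlapped through 1 distal region, and the log2 change of -1.59 had an SE of 0.91 (unadjusted p = 0.0788) in the authors' deposited table. Col15a1 had 5 counts in distal and 24 in proximal. Col18a1 had 2 and 11, or 1.11-fold lower in distal with distal held at 3 counts. Its log2 change was -0.68 (SE 1.21, adjusted p = 0.991) in the authors' deposited table, with an interval that contains 0. Col4a3 had 0 and 1 counts, Col4a4 0 and 2, and Col4a6 1 and 0.

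Among the remaining 9 genes, Col8a2 was called. Type VIII is a short-chain collagen that forms hexagonal networks, known from the membrane beneath the corneal endothelium and from vessel walls. Col8a2 (chr4:126286793-126314330, plus strand) had counts of 0, 2, 2, 0 and 1 in the distal regions and 21, 26, 29, 30 and 12 in the proximal ones. Its normalized levels were 0, 2.86, 3.58, 0 and 3.04 in distal (mean 1.90 ± 1.75, SD, n = 5 regions) and 8.69, 11.8, 14.8, 19.1 and 7.99 in proximal (mean 12.5 ± 4.61, SD, n = 5 regions). The lowest proximal region was above the highest distal one.

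The authors' deposited table gives Col8a2 a log2 change of -2.85 (SE 0.73, adjusted p = 0.0149), or 7.19-fold higher in proximal (95% interval 2.66 to 19.4). Its partner Col8a1 did not pass, with counts of 11, 3, 2, 1 and 0 in distal and 22, 19, 17, 17 and 5 in proximal. The normalized levels of Col8a1 were 13.2, 4.30, 3.58, 1.96 and 0 in distal and 9.10, 8.59, 8.69, 10.8 and 3.33 in proximal, so the highest value of all was distal. Its log2 change was -0.60 (SE 0.57) in the authors' deposited table.

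Of the others, Col26a1 (chr5:136741759-136883209, minus strand) had counts of 4, 3, 1, 4 and 0 in distal and 21, 27, 12, 21 and 7 in proximal. Its levels were 4.81, 4.30, 1.79, 7.84 and 0 in distal and 8.69, 12.2, 6.13, 13.4 and 4.66 in proximal, which overlapped. The authors' deposited table gives a log2 change of -1.16 (SE 0.57, unadjusted p = 0.0396, adjusted p = 0.834). Col25a1 (chr3:130131501-130599877, plus strand), a membrane-spanning collagen of neurons and muscle, stood at 34.9 normalized counts in distal and 38.4 in proximal, with a log2 change of -0.14 (SE 0.31) in the authors' deposited table.

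Col23a1, another membrane-spanning collagen, had a positive log2 change that did not pass the test, with counts of 3, 9, 6, 6 and 2 in distal and 11, 9, 16, 8 and 6 in proximal. Its levels were 3.61, 12.9, 10.7, 11.8 and 6.09 in distal and 4.55, 4.07, 8.18, 5.11 and 3.99 in proximal, and the log2 change was 0.79 (SE 0.46) in the authors' deposited table. Col10a1, the collagen of hypertrophic cartilage, had 8 counts in distal and 19 in proximal, with a log2 change of 0.44 (SE 0.81) in the authors' deposited table, and its exons overlap those of Nt5dc1 on the opposite strand. Col13a1 had 0 counts in distal and 15 in proximal, 8 and 7 of them in 2 regions. This is 1.52-fold lower in distal with distal held at 3 counts. Its log2 change was -2.27 (SE 2.07, adjusted p = 0.991) in the authors' deposited table, with an interval that contains 0. Col7a1, the anchoring fibril collagen of skin, had 0 and 3 counts, and Col17a1, of hemidesmosomes, 1 and 3.

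A positive log2 change of a gene with so few counts carries no direction. Across all genes, 2264 had recovered counts in proximal only, and 1606 of them (70.9%) were nonetheless listed with a positive log2 change. A single proximal count was listed at 1.19. Among collagens, Col4a3 and Col22a1 are of this kind, each with 1 proximal count and a value of 1.19 in the authors' deposited table. So are Col4a4, Col5a3 and Col20a1, each with 2 proximal counts, and Col7a1 with 3. They are listed at 0.63, 0.63, 0.6 and 0.11. Of the 17 collagen genes with a positive log2 change, only 5 had a mean of at least 10.

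The genes that process collagens were examined next. A chain is hydroxylated and folded in the endoplasmic reticulum with dedicated enzymes and chaperones, exported in large carriers, trimmed of its propeptides outside the cell, and cross-linked by lysyl oxidases. Of 57 listed genes, 53 were in the table, and P3h2, Tll2, Lair1 and Gp6 were not analysed here. The authors' deposited table has 2 of the 53 higher in proximal and 0 in distal at an adjusted p under 0.05, where the shares over all genes were 0.582% and 0.395%. At an unadjusted p under 0.05 the counts were 11 and 0, against 3.51% and 2.56% of all genes. The median log2 change was -0.22, against 0.07 over all genes, with 35 negative and 18 positive.

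The called genes were Sparc, a collagen-binding matrix chaperone, and Loxl1, a lysyl oxidase. Sparc stood at 65.4 normalized counts in distal and 151 in proximal, 2.32-fold higher in proximal. The authors' deposited table gives it a log2 change of -1.21 (SE 0.18, adjusted p = 3.56e-08). Loxl1 stood at 2.32 in distal and 12.7 in proximal, 5.49-fold higher in proximal, with a log2 change of -2.46 (SE 0.62, adjusted p = 0.0116) in the authors' deposited table.

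Genes of the cross-linking step had the lowest median among the 7 processing lists. It was -0.71 over 6 genes, with a summed level of 21.4 normalized counts in distal and 45.7 in proximal. Of the 6 genes, 3 had a mean under 1. The median lies between Loxl2 and Tgm2, and Tgm2 (-0.74, SE 1.61 in the authors' deposited table) was at the floor in distal. The rank of this median is therefore a description. Besides Loxl1, Lox had a log2 change of -1.54 (unadjusted p = 0.0354) and Loxl2 one of -0.68 (unadjusted p = 0.0219) in the authors' deposited table, and neither passed the adjusted test. The chaperone list, which also holds the ion channel gene Tmem38b, had a median of -0.52 over 8 genes. Beside Sparc, Serpinh1, the collagen-specific chaperone, stood at 123 in distal and 154 in proximal, with a log2 change of -0.33 (SE 0.15, unadjusted p = 0.0315, adjusted p = 0.75) in the authors' deposited table. Fkbp10, a folding isomerase, had a log2 change of -1.46 (unadjusted p = 0.0151) in the authors' deposited table.

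The hydroxylating, exporting and trimming genes lay nearer to 0. The medians were -0.17 for prolyl hydroxylation (9 genes), -0.06 for lysyl hydroxylation and glycosylation (5), -0.14 for export (10) and 0.21 for propeptide removal (7). Of the propeptide removal genes, 3 were at or under the floor on both sides, each listed with a positive log2 change, so the sign of that median carries no direction. P4ha2, a catalytic prolyl hydroxylase subunit, had a log2 change of -1.09 (SE 0.35, unadjusted p = 0.00183, adjusted p = 0.141) in the authors' deposited table. P4ha3, another such subunit, had -1.99 (SE 0.78, unadjusted p = 0.0103) in the authors' deposited table. The coat protein gene Sec31a had -0.47 (SE 0.17, unadjusted p = 0.00515, adjusted p = 0.275) in the authors' deposited table. The partner subunit P4hb had 0.27, the propeptide-removing protease Bmp1 0.21 and its enhancer Pcolce 0.02 in the authors' deposited table.

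Receptors for collagen had a median of -0.14 over 8 genes, and 0 passed the adjusted test. Itga1, the collagen-binding integrin subunit, had about 0.885 counts in distal and 34.6 in proximal, 3.50-fold lower in distal with distal held at 3 counts. The authors' deposited table lists it at an adjusted p of 0.0796. Ddr1, a collagen-binding receptor kinase, had a log2 change of -2.07 (SE 0.96, unadjusted p = 0.0306, adjusted p = 0.739) in the authors' deposited table, with a 95% interval of -3.95 to -0.19. It had about 2.84 counts in distal and 39.4 in proximal, 3.99-fold lower in distal with distal held at 3 counts. Ddr2, on the same list, had a positive log2 change of 0.45 (SE 0.4, adjusted p = 0.991) in the authors' deposited table. Itgb1, the shared integrin partner, had -0.03 in the authors' deposited table.

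**Figure D4:**
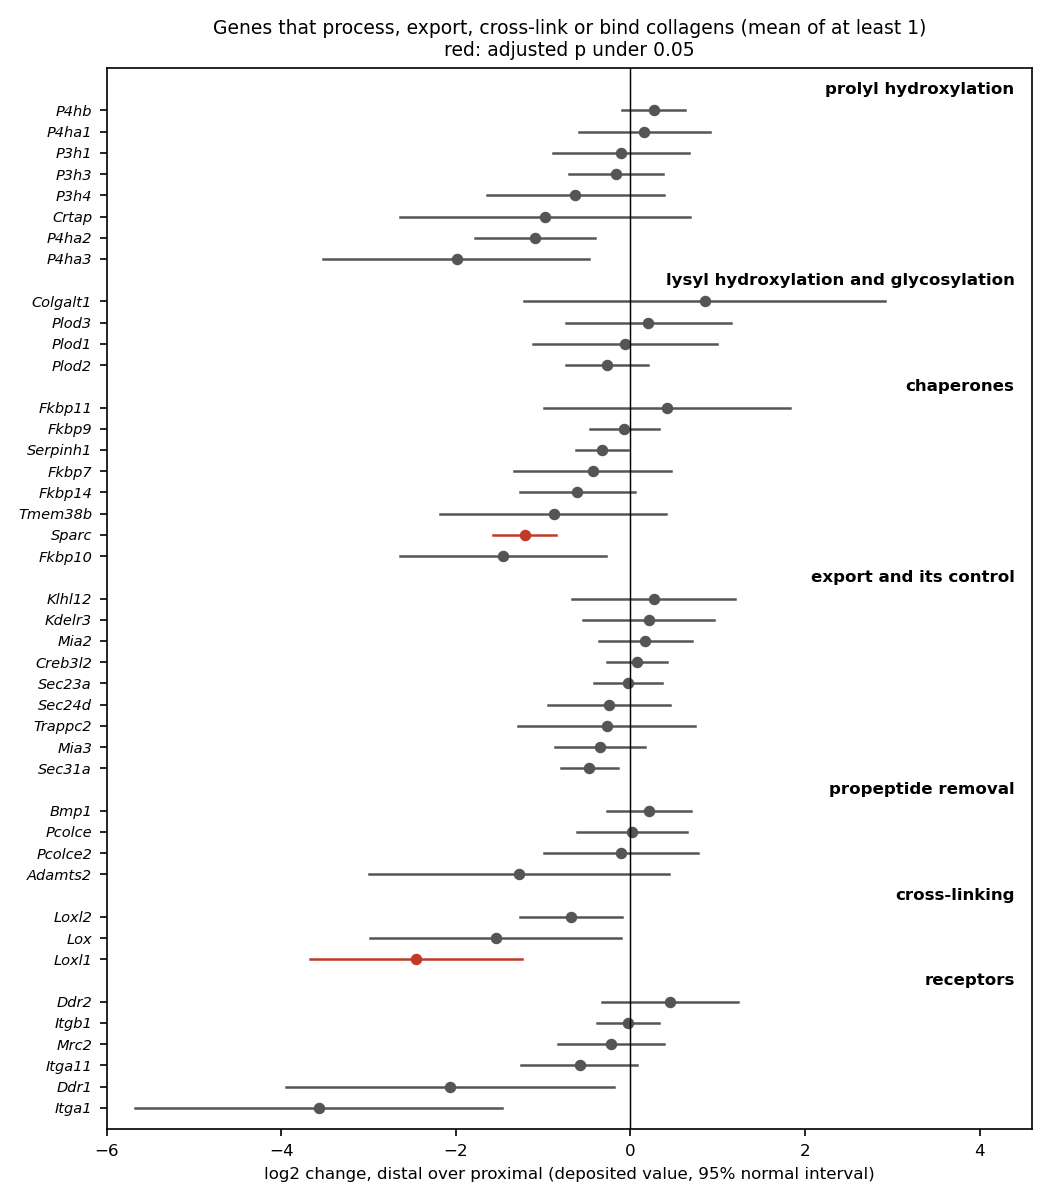
Deposited log2 change of distal over proximal (x axis, 95% normal interval) for the genes of mean 1 or more that hydroxylate, fold, export, trim, cross-link or bind collagens, grouped by step. Red marks Sparc and Loxl1, the genes with an adjusted p under 0.05, at -1.21 and -2.46.

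Markers of the cell types that the regions could hold were read in the same way. All 12 muscle markers were in the table, 11 with a negative log2 change, and the authors' deposited table has 5 past the adjusted limit, all higher in proximal. Of their summed level, the cardiac actin Actc1 gave 8.27 normalized counts in distal and 71.5 in proximal. Apart from Actc1 and the giant sarcomere protein gene Ttn, the muscle markers had computed distal counts of 3 or fewer, and Pax7 was at or under the floor on both sides. Limb mesenchyme markers summed to 484 in distal and 514 in proximal, and all 8 were in the table. Among these, Tbx5 and Pdgfra were higher in proximal, at log2 changes of -1.41 and -0.86, and Msx1 was higher in distal at 1.12, all past the adjusted limit in the authors' deposited table. Pdgfra, the receptor that marks connective tissue mesenchyme, stood at 70.3 in distal and 128 in proximal, 1.82-fold higher in proximal.

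The remaining lists held few counts or did not pass. The 4 tendon markers summed to 13.2 in distal and 13.0 in proximal. Within that sum Egr1, an immediate early gene, stood at 8.66 and 5.41, Scx at 4.05 and 5.99, and Mkx at 0.434 and 1.55. The 3 markers of bone-forming cells in the table summed to 25.9 and 18.2. Endothelial markers summed to 26.5 and 33.5 over 5 of 8 genes, 3 of them at or under the floor on both sides. Of these sums Erg alone gave 24.2 and 32.8, and Pecam1, Cdh5, Emcn and Kdr were each under 1 normalized count on both sides. The 4 surface ectoderm markers of 8 in the table summed to 0.992 and 0.619, and of 7 blood markers Ptprc alone was in the table, at 0.421 and 0.858. Of the genes of these 5 lists, 0 passed the adjusted test in the authors' deposited table.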

How the data were processed

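The only file analysed holds the authors' comparison of the sides, laid out as DESeq2 writes its results, per the file headers. The mean is a signal in normalized counts that the authors averaged over the regions. The authors fitted a log2 change with its standard error (SE), and the deposited statistic is a score that equals their ratio to within 1.91e-06. The deposited p-value and adjusted p-value are the authors'. Genome builds mm10 and GRCm38 are named in the submitters' processing notes; the aligner, counter, strand setting and annotation are not given in the sources used here. Coordinates are those of GENCODE M21 (GRCm38), matched by identifier for all 41 genes.

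No values per region are in the table. Size factors were read from the lowest means, which repeat in steps of 1 count, and the side of each from how the log2 change moved with the count. Whole counts per region were recovered for 25 of the 26 members with a mean up to 14, for 13 of them from the mean alone. For 12 they are the 1 set found that fits the mean and, within 2e-09, the negative binomial log2 change. The spread parameter of each candidate set was chosen to give the deposited standard error, so that match is no separate check. Only sets with a distal part within about 1.4-fold of the fitted one were searched. With the spread parameter chosen in the same way, the fit matched the log2 change of 888 of 888 genes with a mean from 0.7 to 1.2. For other genes, levels and counts of each side follow from the deposited mean and log2 change together with the size factors. On 910 genes with a mean up to 1.2 and at least 8 recovered proximal counts, the computed distal counts were off by 1.42 at most and the proximal by 5.65. These errors do not cover genes of higher mean. Intervals are 95% normal intervals. Where 1 side had 3 counts or fewer, a fold is a bound with that side held at 3 counts over the group. It is not a confidence limit and leaves out the spread between regions.

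Calls are a deposited adjusted p under 0.05. No further test was run. Members, gene lists and rules were chosen with earlier results of these data known. The genes given in full are those called or with a mean of at least 10, and others are named where their unadjusted p is under 0.05 or to account for every member. Of the processing list, those with an unadjusted p under 0.05 are named; other processing and marker genes named were chosen after their values were seen. No member had a near-identical copy over at least 200 of the last 300 bases at 95% identity (BLAST 2.17.0). Python 3.11.15, numpy 2.4.6, pandas 2.3.3 and scipy 1.17.1 were used. Alternatives tried were other limits on adjusted p, a minimum change, adjustment over the listed genes alone, centring on the median, limits on the mean, bounds for low genes and a weighted mean.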

Additional observations from a re-analysis of the deposited data

Results flagged for a closer look

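Among the 21 groups of 5 regions with at least 10 recovered counts, 3 held 1 region far from the other 4, with a gap of more than 0.71 of the group's range. For normally distributed values, chance alone flags about 1 in 20 groups, and this rate was not checked for low counts such as these. For Col6a3, the deepest proximal region stood at 33.5 normalized counts from 81 counts, and the others between 21 and 23.6. For Col24a1, the shallowest distal region stood at 33.5 from 11 counts, and the others between 1.96 and 10.8. For Col23a1, 1 proximal region stood at 8.18 from 16 counts, and the others between 3.99 and 5.11. The flagged region of Col6a3 is its highest, so leaving it out cannot change whether the sides overlap. The effect of leaving these regions out of the authors' fit was not tested.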

How the results depend on the processing

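The 7 collagen genes called higher in proximal were the same genes at an adjusted p under 0.1, after adjustment over the listed genes alone and under both centrings. At an adjusted p under 0.01 there were 5, without Col1a2 and Col8a2, and with a log2 change of at least 1 there were 6, without Col1a2. The count higher in distal was 0 under all 6 alternatives, beside 2 at an unadjusted p under 0.05. The processing genes called fell from 2 to 1 at an adjusted p under 0.01, which leaves Sparc, and rose to 3 at an adjusted p under 0.1, which adds Itga1. The median over all collagen genes stayed negative, from -0.26 to -0.52. The median of the fibril-associated genes changed sign, to 0.03 with a mean of at least 10 and to 0.08 as a weighted mean, so its sign carries no direction. The other 34 alternatives for medians kept their sign and moved by less than the members' median standard error. All 82 for single genes kept their sign and call. These were the centrings alone, on medians of 0.07 and -0.02, a shift too small to change many signs. No paired analysis was possible because each gene has 1 deposited value for the whole comparison and nothing links a distal region to a proximal one. No alternative without 1 region was run, because region counts were recovered for low genes only. With 23.3% of the depth in distal, genes lower in distal reach the floor first.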
